A study of Mus musculus with 2 samples.

Results

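The genes described here belong to the Id and E protein families and were measured in single CD4 T cells of the mouse spleen. They are the inhibitors Id3 and Id2 and the E proteins Tcf3, Tcf4 and Tcf12. They were 5 of the 35976 gene rows in the tables. The genes were selected on measured values of the same cells, namely their level by plate and pool, their share of positive cells and what Id3-positive cells express, so those values are given here as a description, without a test. OTII cells, whose transgenic receptor recognises ovalbumin, had been given to host mice before they were sorted from the spleen. The hosts of one pool were 3 mice of the strain IL13Ra1f/f, CD11cCre/+, here called deleted hosts, and the hosts of the other were 2 C57BL/6 mice, here called control hosts, for which the labels name neither a floxed allele nor Cre. Cells from these hosts are called deleted and control cells for short. CD11c-Cre acts mainly in dendritic cells, and the labels describe the floxed IL-13 receptor gene for the hosts and not for the transferred OTII cells, so its level in the sorted cells does not check the deletion. Collection was 7 days after CAS and a second priming, and the labels do not say what CAS stands for. The gate was PI- Vb5.1-5.2+ CD4+, where PI stains dead cells, and it names no marker that tells transferred from host cells. The study asked how the IL-13 signal to dendritic cells bears on follicular helper T cells.

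E proteins are basic helix-loop-helix transcription factors that bind E-box sites in DNA as dimers. Id proteins have the helix-loop-helix part without the basic, DNA-binding part, so an E protein that pairs with an Id protein cannot bind DNA. In T cells Id3 and Id2 hold E protein activity in check. Id3 is typical of naive, follicular helper and memory-like cells and is induced by antigen receptor signals through EGR factors. Id2 is typical of effector and TH1 cells. E protein activity, in turn, is known to favour Cxcr5 and the follicular helper fate.

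In GRCm38, Id3 lies at chr4:136143822-136145392 on the plus strand, Id2 at chr12:25093799-25096092 on the minus strand, Tcf3 at chr10:80409541-80433976 on the minus strand and Tcf12 at chr9:71844252-72111893 on the minus strand. The sequences just upstream of Id3 and Id2 are shown because these are the inhibitors whose levels the results turn on. Each is the 250 bases before the RefSeq gene start in GRCm38.p6, written 5′ to 3′ on the gene's strand, with E-box matches in capitals. The Id3 sequence is chr4:136143572-136143821 on the plus strand and the Id2 sequence is chr12:25096093-25096342 on the minus strand.
Id3: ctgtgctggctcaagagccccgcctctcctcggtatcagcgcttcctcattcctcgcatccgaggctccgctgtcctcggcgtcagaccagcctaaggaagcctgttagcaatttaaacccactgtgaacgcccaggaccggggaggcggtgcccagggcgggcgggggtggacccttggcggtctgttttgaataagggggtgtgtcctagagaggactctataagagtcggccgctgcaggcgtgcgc
Id2: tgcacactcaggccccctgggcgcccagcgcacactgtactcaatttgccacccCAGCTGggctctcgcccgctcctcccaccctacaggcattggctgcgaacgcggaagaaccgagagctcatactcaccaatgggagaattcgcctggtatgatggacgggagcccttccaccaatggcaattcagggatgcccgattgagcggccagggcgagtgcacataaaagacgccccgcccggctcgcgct
The E-box was searched as CANNTG, which is its own reverse complement, and the EGR site as GCGNGGGCG on both strands. The Id2 window held 1 E-box, CAGCTG, 196 bases before the start, and the Id3 window held none. Neither window held the EGR letters. Among 32851 mouse promoter windows of this length, 66.2% held an E-box match and 4.70% held the EGR letters. The Tcf3 window, chr10:80433636-80433885, precedes a RefSeq start that lies inside the gene span given above, so it is not upstream of the whole gene. It held 1 E-box match, CACTTG, 54 bases before that start. An empty window says only that these letters were not in these 250 bases.

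The cells filled 4 plates per pool, with 92 cells on each plate and 368 cells per pool. Plates are technical splits of 1 pool, no plate held cells of both pools, and plate and pool therefore cannot be told apart. Reads in genes summed to 542650671 in deleted hosts and 573105030 in control hosts, with plate totals between 125197307 and 148025125. The median cell had 1499762 reads in deleted hosts and 1592795 in control hosts. One deleted cell had 9905 reads, which lies within the 6698 to 12348 reads of the 9 wells without a cell. The 8 CD4 T cell markers with rows summed to between 7764 and 9316 counts per 1000000 reads (CPM) on every plate.

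Id3 was the gene of the 5 that differed most between the pools. In deleted hosts its level was 233, 254, 148 and 182 CPM on plates 1 to 4, against 568, 522, 552 and 449 CPM on the plates of control hosts. Every plate of the deleted pool was below every plate of the control pool. Over all cells the level was 203 CPM in deleted hosts (exact 95% Poisson interval 202 to 204) and 522 CPM in control hosts (520.0 to 524), and this interval covers the counting of reads only. The log2 ratio of deleted over control hosts was -1.36, taken here and below after adding 1 CPM to both levels. Among the 7207 genes that reached 20 CPM in at least 1 pool, 62 were lower by 2-fold or more in deleted hosts with no overlap of plates, which is 0.86%, and 206 were lower without overlap at any size, which is 2.86%. Id3 was chosen for this difference, so nothing is read from its place among them.

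**Figure D1:**
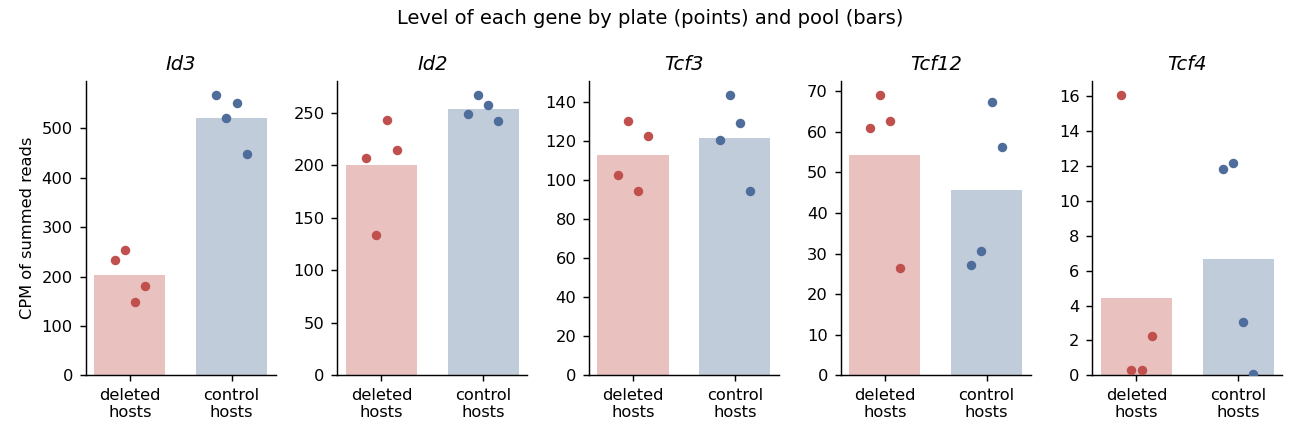
Level of the 5 genes in CPM of summed reads, with deleted hosts left of control hosts in each panel. Points are the 4 plates of a pool and bars are the pool of 368 cells. The Id3 points run from 148 to 254 CPM in deleted hosts and from 449 to 568 CPM in control hosts, and the points of the other genes overlap.

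Most cells lay either at 100 CPM or more or under 10 CPM of Id3. A cell was called positive at 10 CPM or more, and 9 deleted and 6 control cells lay between 10 and 100 CPM. The cells nearest to the threshold had 9.84 CPM below and 11.2 CPM above it in deleted hosts, and 8.95 CPM below and 23.8 CPM above it in control hosts. Cells under the threshold held a median of 1 Id3 read in deleted hosts and 2 in control hosts, while the 9 wells without a cell held 1 to 5 Id3 reads with a median of 2. The median reads under the threshold were therefore at the level of wells with no cell. Some cells under the threshold held more Id3 reads than any of these wells. The deleted cell of 9905 reads, on plate 4, was called positive at 101 CPM on 1 Id3 read, and was positive for the other 4 genes as well, with Tcf4 and Tcf12 on 1 read each. Without the 2 deleted cells under 100000 reads, the share of Id3-positive cells in deleted hosts was 29.5%.

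The Id3 difference lay both in how many cells carried the gene and in how much the positive cells held. In deleted hosts 109 of 368 cells were Id3-positive, 29.6% (exact Clopper-Pearson 95% interval 25.0 to 34.6), against 175 of 368 cells in control hosts, 47.6% (42.4 to 52.8). By plate the share was 34.8%, 31.5%, 21.7% and 30.4% in deleted hosts, and 47.8%, 52.2%, 47.8% and 42.4% in control hosts. The plates did not overlap in this share. The median level of positive cells was 656 CPM in deleted hosts (quartiles 429 and 868) and 769 CPM in control hosts (524 and 1379). By plate this median was 616, 777, 516 and 624 CPM in deleted hosts and 781, 702, 826 and 763 CPM in control hosts, and the plates overlapped. The summed level of the positive cells, which weighs high cells more, was 646, 807, 699 and 598 CPM on the deleted plates and 1102, 977, 1168 and 1043 CPM on the control plates, with no overlap. As ratios of deleted over control hosts, the pool level was 0.389, the share of positive cells 0.623, the summed level of positive cells 0.639 and their median 0.854. The pools differed most at the upper end, with 18 deleted and 65 control cells at 1000 CPM or more. The highest cell reached 1933 CPM in deleted hosts and 6902 CPM in control hosts, where it held 4.17% of the pool's Id3 reads.

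**Figure D2:**
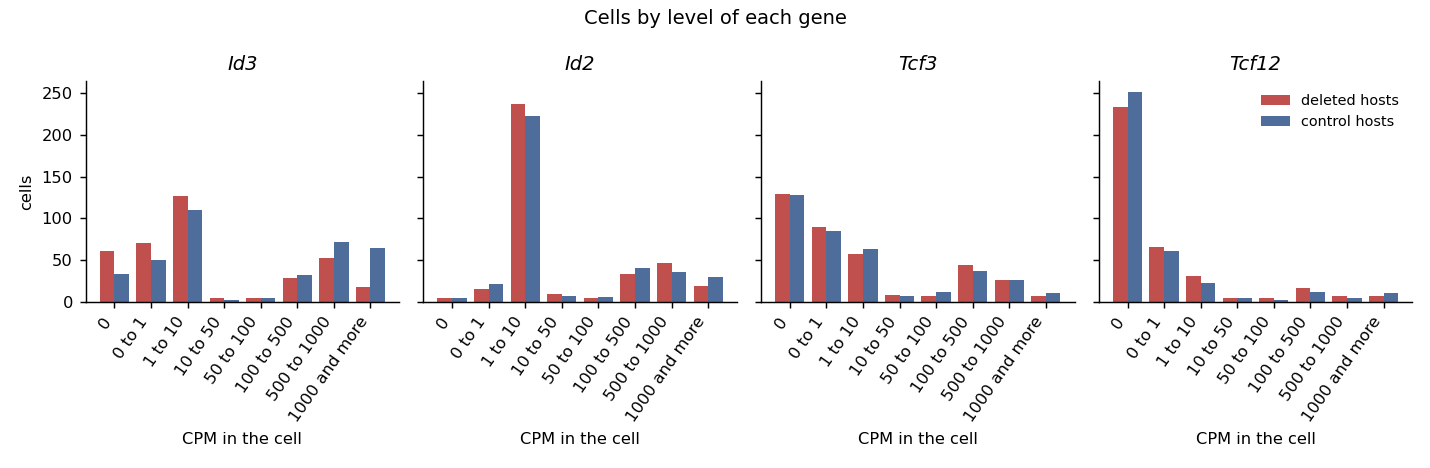
Number of cells in each band of CPM for Id3, Id2, Tcf3 and Tcf12, with 368 cells per pool and deleted hosts to the left in each pair of bars. Few cells lie between 10 and 100 CPM for any of the 4 genes, and 18 deleted and 65 control cells reach 1000 CPM of Id3.

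Id2, the other inhibitor, was close in the pools. Its level was 207, 134, 243 and 215 CPM on the plates of deleted hosts, against 249.3, 267, 258 and 242 CPM on the plates of control hosts. Deleted plate 3 lay above control plate 4, so the plates overlapped, although the other 3 deleted plates were below all control plates. The pool levels were 200.2 CPM in deleted hosts and 254 CPM in control hosts, a log2 ratio of -0.34. Positive cells made up 30.4% of deleted cells (112 cells, 25.8 to 35.4) and 32.6% of control cells (120 cells, 27.8 to 37.7). Their median level was 564 CPM in deleted hosts and 590.1 CPM in control hosts. At 1000 CPM or more there were 19 deleted and 30 control cells.

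Among the E proteins, Tcf3, which encodes the E12 and E47 proteins, was the most abundant and was similar in the pools. Its level was 102, 130.2, 94.6 and 122 CPM on the plates of deleted hosts, against 121, 143, 129 and 94.4 CPM on those of control hosts. The ranges overlapped almost fully. The pool levels were 113 CPM in deleted hosts and 121 CPM in control hosts, with a log2 ratio of -0.11. Exactly 92 cells were positive in each pool, a share of 25% (20.7 to 29.8). The median of the positive cells was 394 CPM in deleted hosts and 369 CPM in control hosts.

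Tcf12, which encodes the E protein HEB, was carried by fewer cells. Its level was 60.8, 69.0, 62.6 and 26.5 CPM on the plates of deleted hosts, against 27.2, 30.7, 67.4 and 56.2 CPM on those of control hosts. Both pools held low and high plates. The pool levels were 54.2 CPM in deleted hosts and 45.6 CPM in control hosts, with a log2 ratio of 0.25. Positive cells were 38 in deleted hosts (10.3%, interval 7.41 to 13.9) and 32 in control hosts (8.70%, interval 6.02 to 12.1). Their median level was 283 CPM in deleted hosts and 396 CPM in control hosts.

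Tcf4, which encodes E2-2, an E protein best known for plasmacytoid dendritic cells, was near absent. Its level was 16.1, 0.311, 0.282 and 2.24 CPM on the plates of deleted hosts, against 11.8, 12.2, 3.06 and 0.054 CPM on those of control hosts. Only 9 deleted cells (2.45%, interval 1.12 to 4.59) and 5 control cells (1.36%, interval 0.443 to 3.14) were positive. A single cell held 40.9% of the Tcf4 reads in deleted hosts and 44% in control hosts, so the plate values follow single cells. The 13 plasmacytoid and dendritic cell markers summed to between 95.8 and 182 CPM on deleted plates and between 54.0 and 127 CPM on control plates, and the part of such cells in the Tcf4 reads was not tested.

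The other members of the Id family were not seen in these cells beyond single reads or a single cell. Id1 had 0.359 CPM in deleted hosts, where 1 cell held 95.4% of its reads, and 0.00872 CPM in control hosts, with no positive cell there. Id4 had no read in either pool. By the limit of 3 counts, 0 of 368 cells allows a share of cells at 10 CPM or more of up to 0.815% in each pool, which covers counting error only.

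Compared per kilobase of transcript, levels were in the order Id3, Id2, Tcf3, Tcf12 and Tcf4 in both pools. In deleted hosts they were 159, 102, 38.2, 8.60 and 0.519 CPM per kilobase. In control hosts they were 408, 129, 41.2, 7.23 and 0.778 CPM per kilobase. Id3 and Id2 did not differ beyond the spread of plates in deleted hosts, with 116 to 198 CPM per kilobase for Id3 and 67.9 to 124 for Id2. Every other neighbour in this order, and Id3 and Id2 in control hosts, were apart on all plates. The lengths are those of the longest principal transcript in GENCODE, from 1.278 kilobases for Id3 to 8.577 for Tcf4, and oligo(dT)-primed full-length cDNA may not follow them exactly.

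**Figure D3:**
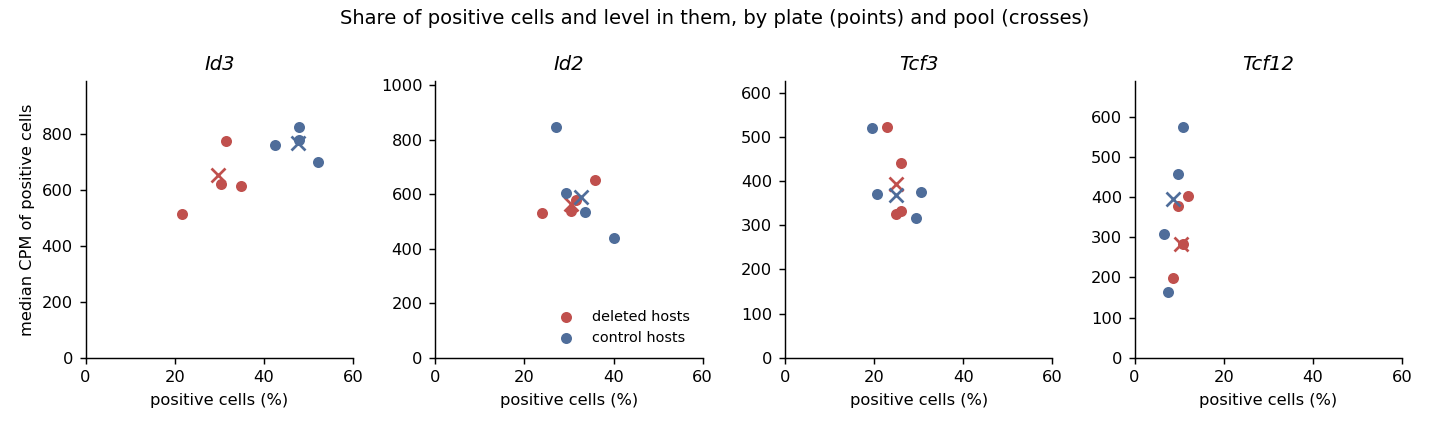
Share of positive cells (x axis, percent) and median CPM of those cells (y axis) for Id3, Id2, Tcf3 and Tcf12, with a point for each plate and a cross for each pool. The pools are apart along the x axis for Id3, with shares of 21.7% to 34.8% in deleted hosts and 42.4% to 52.2% in control hosts, and overlap for the other 3 genes.

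Cells were then sorted by which kinds of member they carried. Cells with an Id gene and no E protein gene made up 31.8% of deleted cells (117) and 40.8% of control cells (150). Cells with an E protein gene and neither Id3 nor Id2 made up 15.8% of deleted cells (58) and 9.51% of control cells (35), and their intervals, 12.2 to 19.9 and 6.71 to 12.98, overlapped. Cells with both kinds were 67 in deleted hosts and 85 in control hosts. None of the 5 genes was called in 126 deleted and 98 control cells. Id3 and Id2 were positive together in 37 deleted cells (10.1%) and 60 control cells (16.3%). All of these counts depend on the share of Id3-positive cells, on which the genes were chosen. Whether they differ between the pools beyond that share was not tested.

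Whether Id3 marked the cells that carry the other members was then compared within each pool. Id2 was positive in 37 of 109 Id3-positive and 75 of 259 Id3-negative cells of deleted hosts, 33.9% and 29.0%, and in 60 of 175 Id3-positive and 60 of 193 Id3-negative cells of control hosts, 34.3% and 31.1%. Its share was higher in Id3-positive cells on 2 of 4 deleted plates and 3 of 4 control plates, so the classes were not clearly apart for Id2. Their intervals overlapped in both pools.

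Tcf3 had opposite signs in the pools at the threshold of 10 CPM, with a lower share in Id3-positive cells of deleted hosts and a higher one in those of control hosts. In deleted hosts 23 of 109 Id3-positive cells were Tcf3-positive, 21.1% (interval 13.9 to 30.0), against 69 of 259 Id3-negative cells, 26.6% (21.4 to 32.5). In control hosts 60 of 175 Id3-positive cells were Tcf3-positive, 34.3% (27.3 to 41.8), against 32 of 193 Id3-negative cells, 16.6% (11.6 to 22.6). The share was higher in Id3-positive cells on 1 of 4 deleted plates and 4 of 4 control plates. By plate the control shares were 34.1%, 41.7%, 31.8% and 28.2% in Id3-positive cells, against 6.25%, 18.2%, 27.1% and 15.1% in Id3-negative cells. The difference of Id3-positive minus Id3-negative cells was -5.54 percentage points in deleted hosts and 17.7 percentage points in control hosts, and the difference between the pools was not tested. With both genes called positive at 1 CPM it was 4.07 points in deleted hosts and 3.05 points in control hosts, so the signs were no longer opposite. At 1 CPM a median cell needs no more Id3 reads than the 1 to 5 that wells without a cell held. That setting therefore cannot tell the Id3 reads of a cell from such reads, and nothing more is read from it.

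Tcf12 showed the other pattern. In deleted hosts 18 of 109 Id3-positive cells were Tcf12-positive, 16.5% (interval 10.1 to 24.8), against 20 of 259 Id3-negative cells, 7.72% (4.78 to 11.7). In control hosts 14 of 175 Id3-positive cells were Tcf12-positive, 8% (4.44 to 13.1), against 18 of 193 Id3-negative cells, 9.33% (5.62 to 14.3). The share was higher in Id3-positive cells on 4 of 4 deleted plates and 1 of 4 control plates. On deleted plate 4 the shares were 10.7% and 7.81%, and the cell of 9905 reads is among the Id3-positive cells counted there. The sign on that plate depends on this cell. Id2-positive cells gave similar Tcf12 values, with 18 of 112 Id2-positive and 20 of 256 Id2-negative cells in deleted hosts, 16.1% and 7.81%, and 8 of 120 Id2-positive and 24 of 248 Id2-negative cells in control hosts, 6.67% and 9.68%. Intervals of the classes overlapped in each of these Tcf12 comparisons, and the cells behind each share are few. Between pools within a class, the log2 ratio of deleted over control hosts for Tcf12 was 0.87 in Id3-positive and -0.14 in Id3-negative cells, and for Tcf3 it was -0.59 in Id3-positive and 0.54 in Id3-negative cells, with overlapping plates in each case.

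Tcf4 was positive in 6 of 109 Id3-positive cells, 5.50%, and 3 of 259 Id3-negative cells, 1.16%, of deleted hosts, and in 1 of 175 Id3-positive cells, 0.571%, and 4 of 193 Id3-negative cells, 2.07%, of control hosts. The difference was 4.35 points in deleted hosts, higher on 3 of 4 plates, and -1.50 points in control hosts, higher on 1 of 4 plates. One of the 6 deleted cells is the cell of 9905 reads, and at 1 CPM the difference in deleted hosts was -2.82 points.

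Depth differed little between the classes. The median cell had 1583 genes with 5 reads or more among Id3-positive and 1524 among Id3-negative cells of deleted hosts, and 1603 and 1543 in those of control hosts. With the cells of each plate split at the median number of genes per cell and the differences averaged, the Tcf3 difference was -5.58 points in deleted hosts and 16.8 points in control hosts, and the Tcf12 difference was 8.93 points in deleted hosts and -1.33 points in control hosts.

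**Figure D4:**
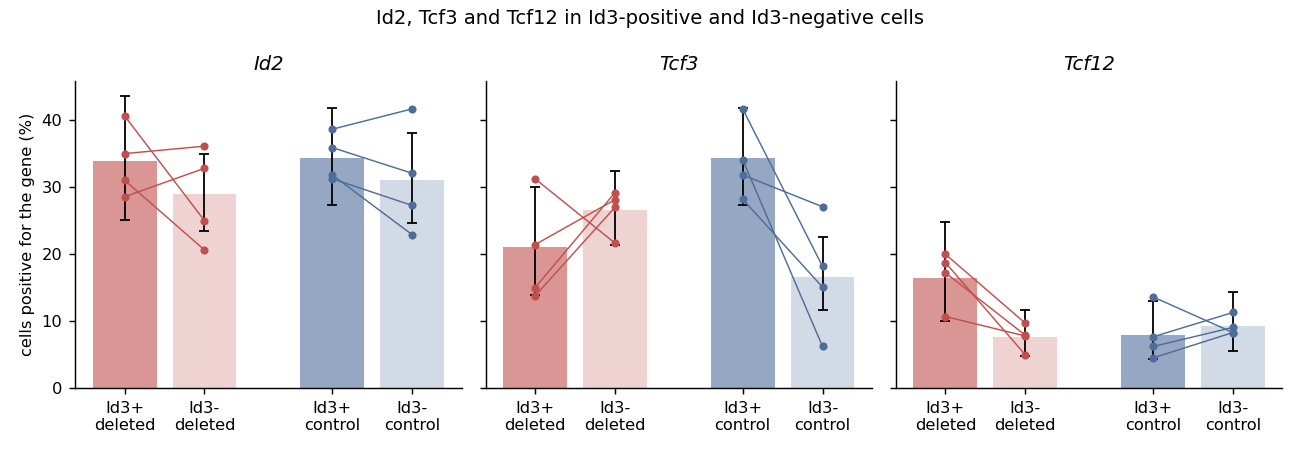
Share of cells positive for Id2, Tcf3 and Tcf12 among Id3-positive (Id3+) and Id3-negative (Id3-) cells of deleted and control hosts. Bars are pools with exact 95% intervals and lines join the classes of 1 plate. All 4 control lines for Tcf3 and all 4 deleted lines for Tcf12 are higher at their Id3-positive end. For Tcf12 on deleted plate 4 this depends on the cell of 9905 reads.

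The rest of the transcriptome was compared between Id3-positive and Id3-negative cells of the same plate. A gene was called when the log2 ratio had the same sign on all 8 plates and was 2-fold or more in both pools, at 20 CPM or more in the higher class of both pools. This is a rule of size and sign, not a test. Of 6797 genes, with Id3 left out because it defines the classes, 5 were called higher (0.0736%) and 12 lower (0.177%). None of the other 4 members was called.

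The genes called higher in Id3-positive cells were Dph2, Lclat1, Ocel1, Vopp1 and Mknk1. Mknk1, a kinase that phosphorylates the translation initiation factor eIF4E, had 123 CPM in Id3-positive and 47.9 CPM in Id3-negative cells of deleted hosts, and 54.3 and 26.02 CPM in those of control hosts. Dph2, an enzyme of diphthamide synthesis, had 89.3 and 37.5 CPM in Id3-positive and Id3-negative cells of deleted hosts, and 46.9 and 5.01 CPM in those of control hosts. Dph2 was positive in 9 of 109 Id3-positive and 12 of 259 Id3-negative deleted cells, and in 10 of 175 Id3-positive and 5 of 193 Id3-negative control cells. The median log2 ratio over the plates of the 5 genes ran from 1.15 for Mknk1 to 1.82 for Dph2.

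The genes called lower were Lrrc29, Stk3, Rnf168, Ddx20, Heca, Slc25a44, Trerf1, Pag1, Krba1, Gab3, Klhdc2 and Cebpz, with median log2 ratios from -4.35 for Lrrc29 to -0.83 for Cebpz. Lrrc29 was positive in 0 of 109 Id3-positive and 6 of 259 Id3-negative deleted cells, and in 1 of 175 and 7 of 193 control cells. On deleted plate 1 and control plate 1 its log2 ratio was only -0.004 and -0.02. Klhdc2, a substrate receptor of a ubiquitin ligase, was the most abundant, at 59.0 CPM in Id3-positive and 122.5 CPM in Id3-negative cells of deleted hosts, and 52.6 and 115 CPM in those of control hosts. Pag1, a membrane adaptor that recruits Csk and dampens Lck signalling, had 14.99 and 39.2 CPM in Id3-positive and Id3-negative cells of deleted hosts, and 13.7 and 33.8 CPM in those of control hosts. Stk3, the MST2 kinase of the Hippo pathway, had 0.512 and 28.1 CPM in Id3-positive and Id3-negative cells of deleted hosts, and 11.1 and 33.4 CPM in those of control hosts. Stk3 was positive in only 2 of 109 Id3-positive and 9 of 259 Id3-negative deleted cells. With 1 plate left out the calls numbered 7 to 14 higher and 15 to 26 lower, and with cells split at the plate median of genes per cell they numbered 0 higher and 19 lower. With Id3-positive at 1 CPM there were 28 higher and 1 lower, 0 of them shared with the calls named here, and the median log2 ratio was 0.42 for Stk3, 0.38 for Gab3 and 0.41 for Cebpz.

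**Figure D5:**
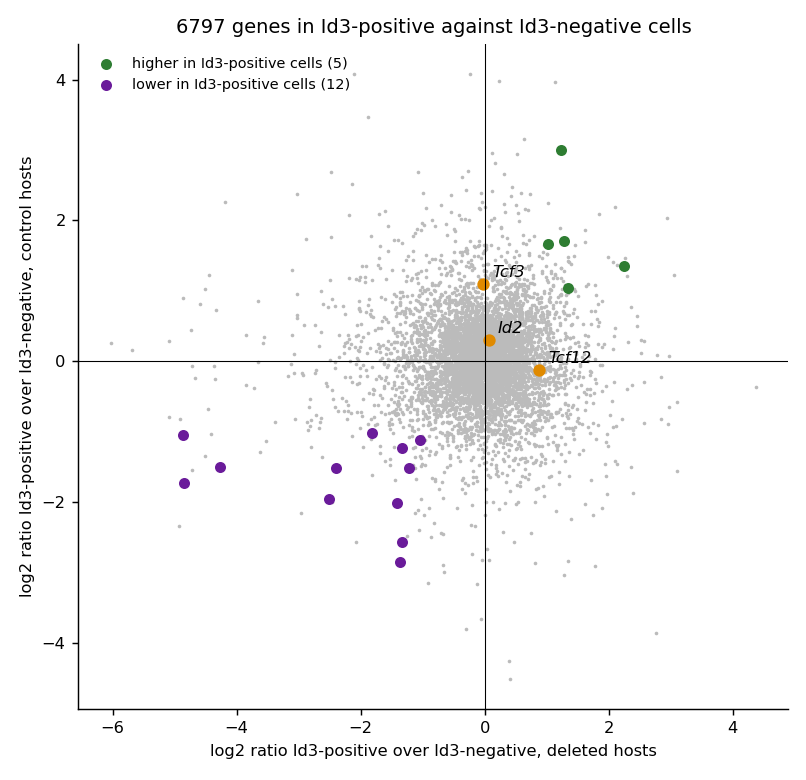
Log2 ratio of Id3-positive over Id3-negative cells in deleted hosts (x axis) and control hosts (y axis) for 6797 genes, each a point. The 5 genes called higher and 12 called lower are coloured, Id2 lies near 0 in both pools, Tcf3 lies at -0.03 in deleted hosts and 1.10 in control hosts, and Tcf12 at 0.88 in deleted hosts and -0.13 in control hosts.

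At any size, 24 genes were higher (0.353%) and 40 lower (0.588%) in Id3-positive cells on all 8 plates. The genes Il4ra, Ifngr1, Klf13 and Ptpn7 among them are named after their values were seen. How many genes would share a sign on all 8 plates by chance was not tested, so this agreement is not read as a link with Id3. Il4ra encodes the receptor chain that pairs with IL-13Ra1. It had 178 CPM in Id3-positive and 269 CPM in Id3-negative cells of deleted hosts, and 158 and 360.3 CPM in those of control hosts, with log2 ratios of -0.59 and -1.19 in the deleted and control pools. By plate the log2 ratio was -0.35, -0.08, -2.29 and -1.43 in deleted hosts and -0.79, -1.72, -1.07 and -1.35 in control hosts. Ifngr1, a chain of the interferon gamma receptor, had 144 and 219 CPM in Id3-positive and Id3-negative cells of deleted hosts, and 141 and 214 CPM in those of control hosts. Klf13, a Kruppel-like factor, had 773 and 922 CPM in Id3-positive and Id3-negative cells of deleted hosts, and 934 and 1153 CPM in those of control hosts. Ptpn7, a phosphatase of MAP kinases in lymphocytes, went the other way, with 483 and 364 CPM in Id3-positive and Id3-negative cells of deleted hosts, and 713 and 368 CPM in those of control hosts.

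The gene lists around the Id and E protein axis were described by counts. A list member was measured at 5 CPM or more in either class of either pool, and the median log2 ratio over all 10473 measured genes was -0.03 in deleted hosts and 0.00 in control hosts. No measured member of any list was called in either direction, beside the 0.0736% higher and 0.177% lower over all tested genes. Of the E protein target genes, 13 of 20 were measured, with a median log2 ratio of -0.02 in deleted hosts and 0.08 in control hosts. The chemokine receptor Cxcr5 had 163 CPM in Id3-positive and 169 CPM in Id3-negative cells of deleted hosts, and 151 and 129 CPM in those of control hosts. Socs3, an inhibitor of cytokine signalling, had 83.0 and 113 CPM in Id3-positive and Id3-negative cells of deleted hosts, and 33.5 and 78.9 CPM in those of control hosts, and was lower in Id3-positive cells on 6 of 8 plates. Rag1 and Ptcra, thymic targets, were listed at 0 in every cell.

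Of the other basic helix-loop-helix genes, 3 of 11 were measured: Ascl2, Lyl1 and Bhlhe40. Their median log2 ratio was -2.56 in deleted hosts and 0.03 in control hosts. Over all cells the 3 genes were 2-fold or more higher in deleted hosts, 1 of them without overlap of plates, with a median log2 ratio of 1.25. Of all 10474 measured genes, 757 were 2-fold or more higher in deleted hosts and 187 were higher without overlap. Bhlhe40, a repressor induced in activated T cells, had 125 and 133 CPM in Id3-positive and Id3-negative cells of deleted hosts, and 83.9 and 26.2 CPM in those of control hosts. All 11 genes summed to 125.3 and 156.6 CPM in these classes of deleted hosts, and 87.8 and 33.1 CPM in those of control hosts. Most of these reads were therefore Bhlhe40, Ascl2 and Lyl1 were low, and the median of -2.56 is the value of a low gene. Of the signalling genes that can induce Id genes, 16 of 18 were measured, with a median of 0.12 in deleted hosts and 0.15 in control hosts. Egr1, an immediate early factor, had 154 CPM in Id3-positive and 100.3 CPM in Id3-negative cells of deleted hosts, and 294 and 297 CPM in those of control hosts. Over all cells Egr1 was at 116 CPM in deleted hosts and 296 CPM in control hosts, with no overlap of plates. In sum the 28 activation genes went the other way, with 11041 to 12235 CPM on deleted and 7067 to 9305 CPM on control plates. Of the 26 measured, 6 were higher and 1, Egr1, lower in deleted hosts without overlap of plates, with a median log2 ratio of 0.44. Over all 10474 measured genes, Id3 included, 187 were higher and 259 lower without overlap of plates, with a median of -0.04. Within the classes the log2 ratio of Egr1 in deleted over control hosts was -0.93 in Id3-positive and -1.56 in Id3-negative cells. Egr1 was therefore lower in both, with overlapping plates in each class. Egr2 had 88.9 and 61.5 CPM in Id3-positive and Id3-negative cells of deleted hosts, and 139 and 128 CPM in those of control hosts.

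Of the naive and memory genes, 20 of 20 were measured, with medians of -0.01 in deleted hosts and -0.25 in control hosts. Tcf7 had 1686 and 2119 CPM in Id3-positive and Id3-negative cells of deleted hosts, and 1715 and 1851 CPM in those of control hosts. The lymph node homing receptor Ccr7 had 849 and 1284 CPM in Id3-positive and Id3-negative cells of deleted hosts, and 862 and 1090.3 CPM in those of control hosts, and was lower in Id3-positive cells on 6 of 8 plates. Of the follicular helper genes, 26 of 27 were measured, with medians of -0.04 in deleted hosts and 0.12 in control hosts. Bcl6, the lineage factor of follicular helper cells, had 29.1 and 21.5 CPM in Id3-positive and Id3-negative cells of deleted hosts, and 37.0 and 25.3 CPM in those of control hosts, and was higher in Id3-positive cells on 7 of 8 plates.

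Of the effector and TH1 genes, 29 of 36 were measured, with medians of -0.40 in deleted hosts and 0.33 in control hosts. Nkg7, a granule protein of cytotoxic cells, had 58.8 and 20.8 CPM in Id3-positive and Id3-negative cells of deleted hosts, and 69.1 and 21.3 CPM in those of control hosts, on 6 of 8 plates higher. It was the 1 measured gene of this list 2-fold or more higher in both pools. Prdm1, which encodes Blimp-1, was the 1 that was 2-fold or more lower in both, and is named after its values were seen. Over all 10473 measured genes, 197 were 2-fold or more higher and 296 lower in both pools. Of the E protein target genes 1 of 13 was higher in this way, and of the Treg genes 1 of 14 lower. Prdm1 had 0.0562 and 5.75 CPM in Id3-positive and Id3-negative cells of deleted hosts, and 0.0395 and 2.56 CPM in those of control hosts. It was lower on 7 of 8 plates, and was positive in 0 Id3-positive and 4 Id3-negative deleted cells, and in 0 Id3-positive and 3 Id3-negative control cells. Of the Treg genes, 14 of 15 were measured, with medians of -0.48 in deleted hosts and 0.15 in control hosts. Foxp3, the factor that defines regulatory T cells, had 7.87 and 36.5 CPM in Id3-positive and Id3-negative cells of deleted hosts, and 3.39 and 25.1 CPM in those of control hosts. It was lower in Id3-positive cells on 7 of 8 plates. It was positive in 2 of 109 Id3-positive and 4 of 259 Id3-negative deleted cells, and in 1 of 175 Id3-positive and 7 of 193 Id3-negative control cells, so these levels rest on 14 cells. Of the activation genes, 26 of 28 were measured, with medians of 0.09 in deleted hosts and 0.10 in control hosts.

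Markers of other cells that the gate could hold were summed in each class. B cell markers summed to 9.45 CPM in Id3-positive and 6.78 CPM in Id3-negative cells of deleted hosts, and 5.03 and 5.87 CPM in those of control hosts. NK and innate lymphoid markers summed to 155 and 105 CPM in Id3-positive and Id3-negative cells of deleted hosts, and 66.2 and 39.2 CPM in those of control hosts. Over all cells they summed to between 78.3 and 196 CPM on deleted plates and between 46.5 and 55.3 CPM on control plates, without overlap, and the 3 measured of 11 had a median log2 ratio of 1.23. Myeloid markers, led by the protease Ctss that T cells may also carry, summed to 204 and 248 CPM in Id3-positive and Id3-negative cells of deleted hosts, and 265 and 237 CPM in those of control hosts. NKT and gamma delta T cell markers, of which 1 of 11 was measured, summed to 5.79 and 0.437 CPM in Id3-positive and Id3-negative deleted cells. In control hosts these sums were 5.61 and 0.119 CPM. By plate the Id3-positive sums were uneven, from 0.0222 to 21.7 CPM in deleted hosts and 0 to 21.0 CPM in control hosts. CD8 T cell markers summed to 6.25 and 10.8 CPM in Id3-positive and Id3-negative deleted cells, and 27.8 and 25.2 CPM in control cells. The part of such cells in the differences between classes and pools was not tested.

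No gene followed Id3 closely from cell to cell. Over the 92 cells of a plate, averaged over 8 plates and across 7353 genes read in 20% of cells or more, the highest mean Spearman correlation with Id3 was 0.15 for Smim7, followed by D17Wsu92e, Ikzf3, Nrbf2 and 4833439L19Rik down to 0.12. The lowest values were those of the ribosomal protein genes Rpl14 at -0.16, Rps14 at -0.15 and the pseudogene Rpl14-ps1 at -0.15, which shares sequence with Rpl14, so reads may be split between them. These values are weak, the cells share plate and depth, and they are no finding. With values under 10 CPM set to 0, a choice made after wells without a cell were seen to hold reads, the highest were Stk16, Psmc4, Casp4, Etfa and Ptpn7, from 0.14 to 0.15, and the lowest were Rpl14, Rpl39 and Peli1, from -0.12 to -0.13.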

How the data were processed

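Single cells were measured by SmartSeq2, with cDNA primed by oligo(dT), amplified in 25 PCR cycles and tagmented, per the labels' protocols. The values the authors deposited are raw counts, whole numbers for each gene in each well. According to the submitters' processing notes they used featureCounts 2.0.1 and mm10. No aligner, annotation or strand setting is given in the labels, so antisense reads cannot be told apart. No molecular identifiers are named, and intervals and limits cover counting error only.

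Counts of the 736 cell wells were scaled to CPM with Python 3.11.15, pandas 2.3.3 and scipy 1.17.1, and edgeR 4.0.16 gave the TMM factors of an alternative. The 32 control wells entered no comparison. Each group is 1 pooled sample, so no test was possible and no p-value is given. Cells were summed per plate, class and pool. The class rule was checked on simulated data. An upper limit for a share of 0 is 3 counts. Transcript lengths are from GENCODE vM21 and promoters from RefSeq GRCm38.p6. No cell was removed, and sorted wells were not searched for doublets.

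The members and the gene lists were chosen with earlier results of these data known. Named genes were the members, up to 12 called genes in each direction without predicted genes, list members whose ratios were largest in size from 20 CPM upward, a fixed set that included Egr1, Cxcr5, Bcl6 and Foxp3, and the genes most and least correlated with Id3. Some list symbols had no row and were not analysed here. Alternatives were other positive thresholds, scalings, pseudocounts, minimum levels and cell filters, thinning and leaving out each plate.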

Additional observations from a re-analysis of the deposited data

Results flagged for a closer look

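Tcf4 stood apart on 1 plate. Deleted plate 1 had 16.1 CPM and the next deleted plate 2.24 CPM, a gap of 0.876 of the range of the 4 deleted plates. These plate values follow single cells, and how often chance gives such a gap was not tested. On that plate 5 cells were Tcf4-positive.

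Tcf4 was also read in control wells that no comparison used. The 13 wells labelled mBM10 held a median of 30 Tcf4 reads and the 10 wells labelled mBM100 a median of 41, while the 9 wells labelled noinput or dw held 0 to 2. The labels do not say what mBM stands for.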

How the results depend on the processing

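The log2 ratios of deleted over control hosts kept their direction under all alternatives run. They ran from -1.48 to -1.23 for Id3, -0.45 to -0.19 for Id2, -0.21 to -0.02 for Tcf3, -1.96 to -0.12 for Tcf4 and 0.07 to 0.49 for Tcf12, and the plate left out set both ends. With cells called positive at 1 CPM, in deleted and control hosts, Id3 was positive in 64.1% and 77.4%, Id2 in 94.8% and 93.2%, Tcf3 in 40.5% and 42.1%, Tcf4 in 6.52% and 3.26%, and Tcf12 in 18.8% and 14.9%, and at that threshold a median cell needs no more Id3 reads than wells without a cell held. There the Tcf3 difference between Id3 classes turned to 4.07 points in deleted hosts and was 3.05 points in control hosts, and the Tcf4 difference in deleted hosts -2.82 points. Leaving out a plate, the Tcf3 difference ran from -11.3 to -2.78 points in deleted hosts and 14.4 to 22.0 points in control hosts, and the Tcf12 difference from 7.04 to 10.8 and from -3.55 to -0.48 points.

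Called genes depended on the settings. Instead of 5 higher and 12 lower, there were 28 higher and 1 lower with Id3-positive at 1 CPM, with 0 of the calls shared, 0 and 19 with cells split at the plate median of genes per cell, 1 and 5 with a pseudocount of 10 CPM, and 0 and 1 with a minimum of 100 CPM. A minimum of 5 CPM gave 28 lower and no minimum gave 35 lower. Leaving out a plate gave 7 to 14 higher and 15 to 26 lower, since fewer plates must then share a sign. With Id3-positive at 1 CPM, the median log2 ratio turned to 0.42 for Stk3, 0.38 for Gab3 and 0.41 for Cebpz; the cause was not tested. No paired analysis was possible because each group is 1 pool.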
